A study of Mus musculus with 3 samples.

Results

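The genes described here are 8 that are widely used as internal controls in quantitative PCR: Actb, Ppia, Hprt, Tbp, Ywhaz, Gusb, Rplp0 and Eef1a1. They were found by symbol in a table of 54532 genes, each with 1 identifier, and all 8 passed the filter on low values that left 10231 genes. They were chosen on FPKM values in these 3 libraries, in which the levels of Ppia and Actb were known to differ, so the levels below are a description. The question was which of these genes held steady enough to serve as a control in this system. The cells were RAW264.7, a mouse macrophage line labelled wild type. Given the cytokine RANKL, it turns into bone-resorbing osteoclasts. All libraries came from cells given RANKL for 3 days. In one group 10 mU/mL of TSH, thyroid stimulating hormone, then followed for 2 h, in another for 24 h, and the group of RANKL alone, labelled 0 h, had none. There was 1 library per group, so no difference below has a replicate check and no p-value is given. The columns of the TSH libraries are named T1 and T2, and those names do not give the hours. Time in culture may differ along with TSH, and the 2 cannot be told apart. The library of RANKL alone serves both TSH comparisons.

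A quantitative PCR assay divides the signal of a gene of interest by that of a reference gene, so any difference in the reference passes into every result. Reference genes are usually taken from basic processes of the cell. Actb encodes beta-actin of the cytoskeleton, which in osteoclasts also builds the ring that seals the cell to bone. Ppia encodes cyclophilin A, a peptidyl-prolyl isomerase that assists protein folding. Hprt encodes an enzyme of purine salvage, Tbp the TATA-box binding protein of transcription initiation, and Ywhaz the zeta form of the 14-3-3 adapter proteins. Gusb encodes beta-glucuronidase of the lysosome, Rplp0 a stalk protein of the large ribosomal subunit, and Eef1a1 the elongation factor that brings aminoacyl-tRNA to the ribosome.

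Reads per gene, recovered from the deposited FPKM (read fragments divided by gene length in kilobases and by depth), summed to 16809034 in T1, 17390744 in T2 and 16156926 with RANKL alone. The 8 genes held 2.48% of the reads in T1, 2.35% in T2 and 2.21% with RANKL alone. A mean of 1 FPKM or more was found for 9 of 10 osteoclast markers, and the summed level of the 10 was 2572 FPKM in T1, 2496 FPKM in T2 and 3097 FPKM with RANKL alone. Macrophage markers passed that limit in 7 of 8 cases and summed to 1228, 1229 and 1242 FPKM. Within that sum Csf1r, Cd68 and Ptprc were lower in both TSH libraries, and Adgre1, Lyz2 and Cd14 were higher. Itgam and Fcgr1 went opposite ways in T1 and T2. None of 8 osteoblast and fibroblast markers, 7 lymphocyte markers and 5 neutrophil markers reached a mean of 1 FPKM. Their sums were at most 0.380, 0.196 and 0.126 FPKM. In such bulk samples fewer cells of a type and less RNA per cell cannot be told apart. The part of the lower osteoclast sum in any difference below was not tested.

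Ywhaz was the steadiest of the 8 genes, and Ppia differed most. Spread is given as the highest over the lowest FPKM of the 3 libraries, and a gene was counted as differing at a spread of 1.2-fold or more. Only Ppia reached it, 1 of 8 genes, where 18.4% of all genes past the filter did. Since differences in the level of Ppia were among the reasons for the choice, nothing is read from that count. In ascending order the spreads were 1.01 for Ywhaz, 1.05 for Hprt, 1.09 for Actb, 1.097 for Gusb, 1.11 for Tbp, 1.11 for Rplp0, 1.13 for Eef1a1 and 1.95 for Ppia. The median spread of all genes was 1.099. A smaller spread than that of Ywhaz was found for 0.811% of genes, and than that of Hprt for 18.2%. For Actb, Gusb, Tbp, Rplp0 and Eef1a1 the share was between 44.2% and 65.4%. These 5 genes thus lay near the middle of the distribution of all genes, which is not matched for reads. Without T1 the order at the top changed, to Hprt at 1.002, Tbp at 1.005 and Ywhaz at 1.006. A smaller spread than that of Ppia was found for 99.5% of genes.

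**Figure D1:**
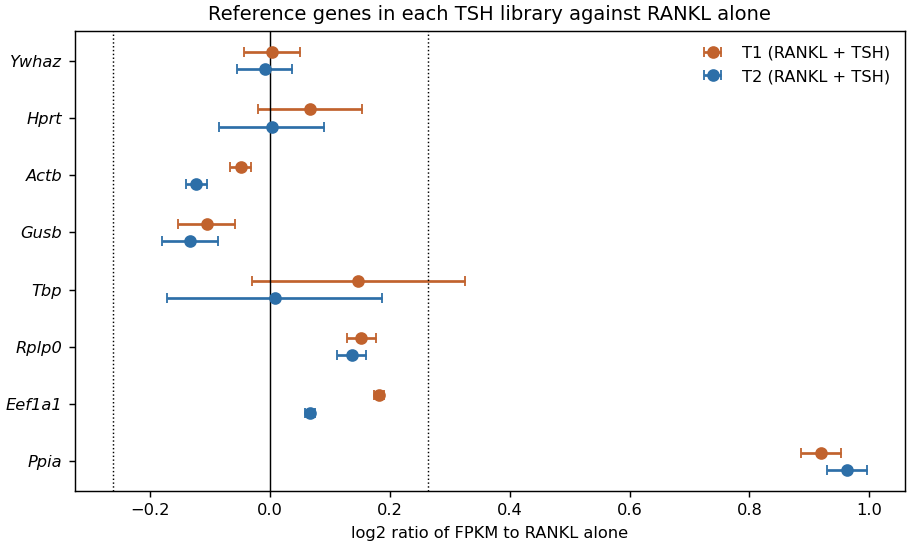
FPKM of each reference gene in the T1 and T2 libraries as the log2 ratio to RANKL alone, with genes in ascending order of spread from the top. Points are 1 library each, bars are 95% counting intervals and dotted lines mark 1.2-fold; Ppia lies beyond the line in both TSH libraries, at 0.92 and 0.96, and no other point does.

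Counting noise sets a limit on such an order, and it falls with depth. The coefficient of variation of Ywhaz over the 3 libraries was 0.430%, below the 1.14% that counting its reads alone would give. For Hprt it was 2.64% beside 2.15% from counting, and for Tbp, the gene with the fewest reads, 5.84% beside 4.35%. It was above the counting value in the deeply read genes, at 4.27% beside 0.429% for Actb, 4.94% beside 1.17% for Gusb, 5.70% beside 0.589% for Rplp0, 6.42% beside 0.191% for Eef1a1 and 33.0% beside 0.734% for Ppia. Few reads alone widen a spread, as the plot of spread against reads shows. Among the 729 genes whose reads were within 2-fold of those of Ywhaz, 2.06% had a smaller spread. Among the 3001 such genes for Hprt the share was 30.0%, and among the 771 for Gusb it was 79.4%. It was 72.7% of 121 genes for Rplp0, 56.25% of 32 for Actb and 52.9% of 3976 for Tbp. Gusb and Rplp0 were thus less steady than most genes of like reads. Eef1a1 had only 2 such genes.

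**Figure D2:**
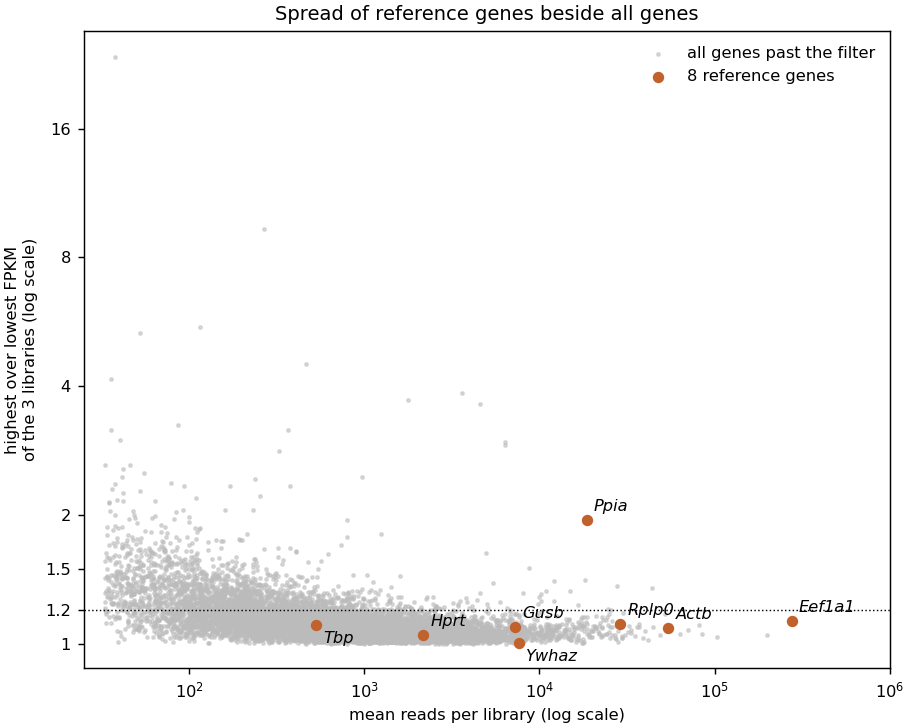
Highest over lowest FPKM of the 3 libraries against mean reads per library, both on log scales, for the 10231 genes past the filter (grey) and the 8 reference genes (orange). The dotted line marks 1.2-fold; Ppia, at 1.95, lies above most genes of similar depth, and Ywhaz, at 1.01, lies near the floor.

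Ppia (chr11:6415443-6419817 on GRCm38, plus strand) stood at 366 FPKM in T1, 378 FPKM in T2 and 194 FPKM with RANKL alone. The TSH libraries were thus close to each other and RANKL alone was the low one. The ratio to RANKL alone was 1.89 (95% counting interval 1.85 to 1.94) in T1 and 1.95 (1.91 to 1.99) in T2, from 21544, 23207 and 10957 reads. Between the TSH libraries the ratio of T2 to T1 was 1.03 (1.01 to 1.05), so the spread of 1.95 rests on the library of RANKL alone, and without it 0 of the 8 genes reached 1.2-fold. Of all genes past the filter, 10.6% differed by 1.2-fold from RANKL alone in T1 and 10.5% in T2.

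A processed pseudogene of Ppia, Gm10123 (chr9:96895658-96896147, plus strand), moved the other way. It held 2847 reads in T1, 2496 reads in T2 and 8338 reads with RANKL alone. Its ratio to RANKL alone was 0.328 (0.315 to 0.343) in T1 and 0.276 (0.263 to 0.288) in T2. Its share of the reads of the pair was 11.7% (Clopper-Pearson interval 11.3% to 12.1%) in T1, 9.71% (9.35% to 10.1%) in T2 and 43.2% (42.5% to 43.9%) with RANKL alone. The annotated sequences of the pair are nearly the same. Of the 492 coding bases of Ppia 490 align to Gm10123, with 0 substitutions, so any read of 100 bases inside the aligned part has the same letters in both. The first 150 coding bases of each, from GENCODE M21 transcripts on GRCm38, show this, and no letter is in capitals because none differs.
Ppia: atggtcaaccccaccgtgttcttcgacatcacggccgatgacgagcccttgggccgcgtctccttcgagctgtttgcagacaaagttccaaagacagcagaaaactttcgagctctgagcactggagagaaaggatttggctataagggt
Gm10123: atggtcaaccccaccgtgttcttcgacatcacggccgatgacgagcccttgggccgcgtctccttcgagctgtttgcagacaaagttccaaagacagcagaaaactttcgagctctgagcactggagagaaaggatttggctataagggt

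Summed over the pair, the difference was smaller. In RPM (reads scaled to a depth of 1000000), the pair held 1455 in T1, 1467 in T2 and 1196 with RANKL alone, and the ratios of the sums to RANKL alone were 1.22 (1.19 to 1.24) in T1 and 1.23 (1.203 to 1.25) in T2. The TSH libraries were again the high ones. Over all 25 near-identical copies of Ppia, of which 13 had reads, the ratios were 1.204 (1.18 to 1.23) and 1.21 (1.19 to 1.23), and the ratio of T2 to T1 was 1.004 (0.987 to 1.02). Ppia therefore still passed 1.2-fold, and was still the member with the largest spread, at 1.21. One of those copies is Gclm, a protein-coding gene that matches through a short transcript, and without the protein-coding copies the ratios were 1.21 and 1.23. How the authors assigned reads with several positions is not given in the sources used here, so the level of Ppia itself is uncertain.

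**Figure D3:**
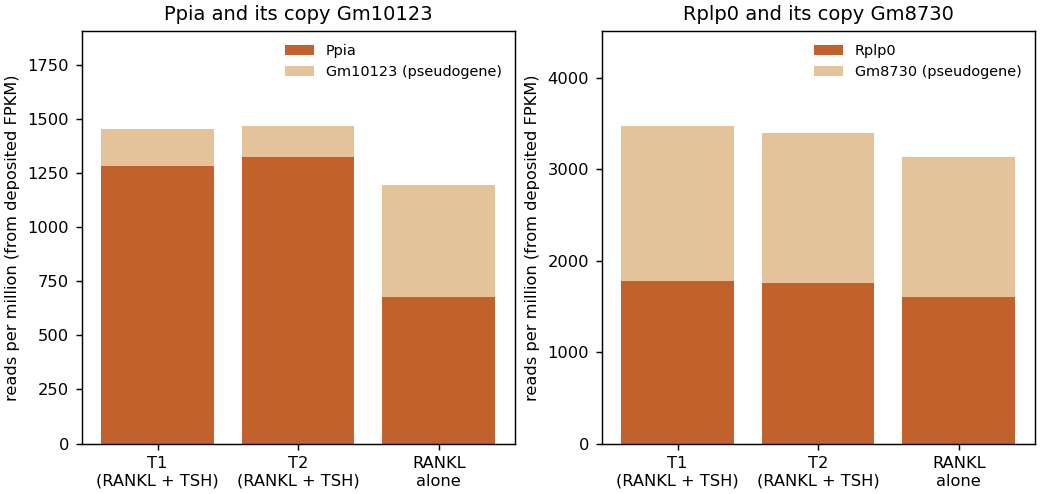
RPM of Ppia and Rplp0 (dark) with their most-read pseudogene copies Gm10123 and Gm8730 (light) stacked on them, for T1, T2 and RANKL alone, 1 library each. The copy holds 11.7% and 9.71% of the Ppia pair in T1 and T2 against 43.2% with RANKL alone, while the Rplp0 pair divides alike in all 3.

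Actb (chr5:142903115-142906754, minus strand) had 1215 FPKM in T1, 1154 FPKM in T2 and 1257 FPKM with RANKL alone. It was lower in both TSH libraries, where its ratio was 0.966 (0.955 to 0.978) in T1 and 0.918 (0.907 to 0.929) in T2. T2 was also below T1, at 0.9502 (0.939 to 0.962). The interval left out 1 in each comparison, which is called beyond counting error here, yet no difference reached 1.2-fold. The only near-identical copy of Actb, Gm15725, had 0 reads in every library, and 1.098% of the runs of 100 bases in its main transcript occur in transcripts of other genes.

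Genes of the actin cytoskeleton were set beside Actb. Of 42 listed genes 37 passed the filter, and 28 of the 37 were lower in T1 and 28 in T2, 20 and 24 of them beyond counting error. Over all genes past the filter 50.6% were lower in T1 and 50.9% in T2, and 13% and 14.1% were lower beyond counting error. The shares beyond counting error, here and for the lists below, are not matched for reads. Genes with more reads pass at smaller differences. The median log2 ratio of the 37 genes was -0.06 in T1 and -0.07 in T2, where that of all genes was 0.00 in both. Actb itself was at -0.05 and -0.12. Its closest relative Actg1, encoding gamma-actin, had 445 FPKM in T1, 446 FPKM in T2 and 518 FPKM with RANKL alone, ratios of 0.858 (0.842 to 0.875) and 0.860 (0.844 to 0.877). The largest spreads of the list were those of Tmsb10, a thymosin that binds actin monomers, and Actn1, an actin crosslinker. Tmsb10 was higher, at 1.23 (1.09 to 1.39) in T1 and 1.25 (1.11 to 1.41) in T2, and Actn1 was lower, at 0.956 (0.921 to 0.993) and 0.858 (0.826 to 0.891).

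None of the other cyclophilins differed as much as Ppia. The list also holds Bsg, a cell surface receptor of cyclophilin A. All 16 listed genes passed the filter, 8 were higher and 8 lower in T1, and 6 were higher and 10 lower in T2. Beyond counting error 2 were higher and 2 lower in T1, and 3 were higher and 2 lower in T2, near the 24.2% and 24.8% of all genes that differed either way. Bsg was among the lower ones in both, at 0.9497 (0.915 to 0.986) and 0.939 (0.905 to 0.9746). The median log2 ratios of the list were 0.02 and -0.02, and all 16 had a smaller spread than Ppia. The largest was 1.22, for Ppih, a cyclophilin of the spliceosome, with 206 reads in RANKL alone and ratios of 0.822 (0.668 to 1.01) and 0.929 (0.763 to 1.13). Next came Ppid at 1.11, whose ratios were 1.08 (1.02 to 1.14) and 1.11 (1.05 to 1.17).

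Hprt (chrX:52988137-53021659, plus strand) had 103 FPKM in T1, 98.6 FPKM in T2 and 98.4 FPKM with RANKL alone. T1 was the high library, and neither TSH library differed from RANKL alone beyond counting error, at ratios of 1.05 (0.986 to 1.11) and 1.002 (0.943 to 1.06). Hprt has no near-identical copy, and none of the runs of 100 bases in its transcript occur in another gene. Of 22 listed genes of purine salvage and synthesis 20 passed the filter. In T1 16 of them were higher and 4 lower, and in T2 13 and 7, where 49.4% and 49.1% of all genes were higher. Beyond counting error 4 were higher and 0 lower in T1, and 3 were higher and 1 lower in T2. Of all genes 11.2% and 10.7% were higher beyond it. The widest were Pnp, a salvage phosphorylase, with a spread of 1.22 from ratios of 1.16 (0.989 to 1.37) and 0.954 (0.806 to 1.13), and Adsl, an enzyme of purine synthesis, with a spread of 1.13.

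Tbp (chr17:15499888-15528379, plus strand) was the least expressed member per length, at 2.47 FPKM in T1, 2.24 FPKM in T2 and 2.23 FPKM with RANKL alone. The reads behind these values were 563, 534 and 489. T1 was the high library, and the ratios of 1.11 (0.979 to 1.25) and 1.01 (0.887 to 1.14) did not leave out 1. These intervals are the widest of the 8 genes, so a difference of 1.2-fold in T1 lay within counting error. The gene length deposited for Tbp is 13576 bases, while the median annotated transcript has 791.5 bases. That length spans Pdcd2, a neighbour on the opposite strand that lies wholly inside Tbp and had 0 reads in every library. Reads of Pdcd2 and of Tbp cannot be told apart in these values. Of 24 listed genes, TFIID subunits and partners of Tbp, 23 passed, with 5 higher beyond counting error in T1 and 3 in T2, where 11.2% and 10.7% of all genes were. Beyond it 0 were lower in T1 and 1 in T2, Drap1, a corepressor subunit, at 0.867 (0.811 to 0.927). Taf7 and Taf5, both TFIID subunits, had the largest spreads. Taf7 was at 1.98 (1.47 to 2.69) in T1 and 1.25 (0.900 to 1.73) in T2, from 68 reads in RANKL alone, and Taf5 was at 1.22 (1.04 to 1.42) and 1.32 (1.13 to 1.54).

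Ywhaz (chr15:36770770-36796929, minus strand) had 110.7 FPKM in T1, 109.8 FPKM in T2 and 110.4 FPKM with RANKL alone. No library stood out. The ratios were 1.002 (0.970 to 1.03) in T1, 0.994 (0.963 to 1.03) in T2 and 0.992 (0.961 to 1.02) for T2 against T1. As far as counting goes, these intervals leave room for differences of a few percent, and nothing here measures the spread between cultures. A pseudogene copy, Gm4202, held 2.23%, 1.86% and 1.57% of the reads of the pair in T1, T2 and RANKL alone, and with both copies added the spread was still 1.01. Of 6 other listed 14-3-3 genes 5 passed, and 0 of them had a smaller spread than Ywhaz. Ywhah and Ywhag had the largest, 1.08 each. Ywhag was higher in T2, at 1.08 (1.05 to 1.11), and Ywhah lower, at 0.926 (0.890 to 0.964).

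Gusb (chr5:129989011-130003049, minus strand) had 93.7 FPKM in T1, 91.9 FPKM in T2 and 101 FPKM with RANKL alone. It was lower in both TSH libraries, at 0.929 (0.899 to 0.960) in T1 and 0.912 (0.883 to 0.942) in T2. The TSH libraries did not differ from each other beyond counting error, at 0.981 (0.9497 to 1.01). Gusb has no near-identical copy. Lysosomal glycosidases and sulfatases were read beside it. All 25 listed genes passed the filter. In T1 all 25 were lower, 13 beyond counting error. In T2 20 were lower, 11 beyond it, and 5 were higher, none beyond it. Of all genes 50.6% were lower in T1 and 50.9% in T2, 13% and 14.1% beyond counting error. The median log2 ratio was -0.13 in T1 and -0.09 in T2, beside -0.11 and -0.13 for Gusb. Gla, encoding alpha-galactosidase A, had the widest spread, 1.33. It was at 0.795 (0.719 to 0.879) in T1, while T2, at 1.06 (0.963 to 1.16), did not differ from RANKL alone beyond counting error. Arsb, encoding arylsulfatase B, was lower in both, at 0.812 (0.754 to 0.875) and 0.792 (0.735 to 0.853). The summed osteoclast markers were lower in the same libraries. In T2 each of the 10 markers was lower beyond counting error, with Nfatc1 at 0.961 (0.943 to 0.980). The same did not hold gene by gene in T1. In T1 Ctsk was at 0.736 (0.724 to 0.748), Nfatc1 was higher at 1.05 (1.03 to 1.07), and Dcstamp at 0.960 (0.916 to 1.01) and Ocstamp at 0.981 (0.933 to 1.03), both fusion genes, were within counting error.

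Rplp0 (chr5:115559467-115563727, plus strand) had 1072 FPKM in T1, 1060 FPKM in T2 and 964 FPKM with RANKL alone. It was higher in both TSH libraries, at 1.11 (1.09 to 1.13) in T1 and 1.099 (1.08 to 1.12) in T2. T2 and T1 did not differ beyond counting error, at 0.989 (0.973 to 1.005). A processed pseudogene, Gm8730 (chr8:102864845-102865798, minus strand), held nearly as many reads as the gene itself, 28390 in T1, 28722 in T2 and 24713 with RANKL alone. Here the share of the copy was alike in all libraries, at 48.8%, 48.2% and 48.9% of the pair, and the summed pair gave nearly the same ratios, 1.11 (1.095 to 1.12) and 1.08 (1.07 to 1.098). Summed, however, the pair was lower in T2 than in T1 beyond counting error, at 0.979 (0.968 to 0.990), and so was the sum over all 5 copies, at 0.980 (0.970 to 0.991). The pair differs by 12 substitutions over 951 coding bases. Coding bases 298 to 447 hold 4 of them, marked by capitals, and no other stretch of that length holds more. Of the aligned runs of 100 coding bases, 8.92% are identical in gene and copy, beside 100% for Ppia and Gm10123.
Rplp0: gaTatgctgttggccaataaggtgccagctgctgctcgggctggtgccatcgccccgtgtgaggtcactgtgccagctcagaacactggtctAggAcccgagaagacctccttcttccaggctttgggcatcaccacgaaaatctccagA
Gm8730: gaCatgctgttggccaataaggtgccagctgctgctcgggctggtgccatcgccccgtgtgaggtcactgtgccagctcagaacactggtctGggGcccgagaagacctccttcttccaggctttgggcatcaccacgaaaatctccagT

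Most genes of the large ribosomal subunit were higher, as Rplp0 was. All 24 listed genes passed the filter, 23 were higher in T1 and 20 in T2, where 49.4% and 49.1% of all genes were. Beyond counting error 21 were higher in T1 and 15 in T2, against 11.2% and 10.7% of all genes, shares that are not matched for reads. The median log2 ratio was 0.09 in T1 and 0.05 in T2, below the 0.15 and 0.14 of Rplp0. Every one of the 24 has near-identical copies. Rpl7a, with 193 FPKM in T1, 181 FPKM in T2 and 119 FPKM with RANKL alone, had a spread of 1.63 alone and of 1.26 with its 52 copies added. Rpl30 had a spread of 1.44 alone and of 1.12 with its 13 copies. Rplp1, which forms the stalk together with Rplp0, was at 1.11 (1.095 to 1.13) in T1 and 1.05 (1.04 to 1.07) in T2.

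Eef1a1 (chr9:78478449-78489151, minus strand) was the most expressed member per length, at 7007 FPKM in T1, 6469 FPKM in T2 and 6178 FPKM with RANKL alone. The 3 libraries were apart from one another, with T1 highest. The ratios were 1.13 (1.13 to 1.14) in T1, 1.05 (1.04 to 1.05) in T2 and 0.923 (0.919 to 0.928) for T2 against T1. The gene holds 248399 reads in RANKL alone, so its intervals are narrow, and its copy Gm13456 held at most 0.386% of the reads of the pair. Other elongation factors were steadier. Of 16 listed genes 15 passed, 7 were higher and 8 lower in T1, 6 were higher and 9 lower in T2, and the median log2 ratios were -0.02 and -0.01. All 15 had a smaller spread than Eef1a1, whose log2 ratios were 0.18 and 0.07. The widest were Eef1akmt1, a methyltransferase that modifies eEF1A, at 1.11, and Tufm, the mitochondrial elongation factor Tu, at 1.098.

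**Figure D4:**
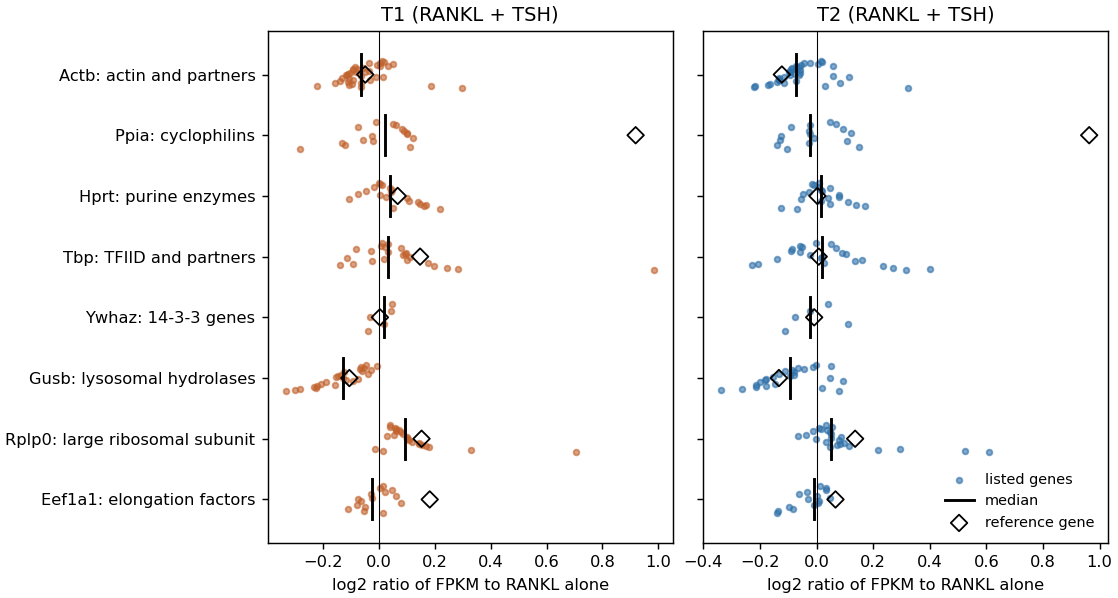
Log2 ratio of FPKM to RANKL alone in T1 (left) and T2 (right) for the genes listed with each reference gene, with 1 dot per gene past the filter, a bar at the list's median and a diamond at the reference gene. Gusb at -0.11 in T1 lies within its list, whose dots are all below 0, while Ppia at 0.92 and Eef1a1 at 0.18 lie above all dots of theirs.

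Counted over the 8 genes, 3 were higher (Ppia, Rplp0 and Eef1a1) and 2 lower (Actb and Gusb) beyond counting error in T1, and the same genes in the same directions in T2. Of all genes past the filter 24.2% differed beyond counting error in T1 and 24.8% in T2, but the members hold more reads than most genes and so pass at smaller differences. Hprt, Tbp and Ywhaz were within it in all 3 comparisons. For T2 against T1 Ppia was higher and Actb and Eef1a1 lower beyond counting error, where 18.8% of all genes differed, 8.19% higher and 10.6% lower. No member differed by 1.2-fold there, and 8.25% of all genes did.

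The pairwise stability value M of the geNorm procedure needs no scaling of libraries, since it takes, for each gene, the mean over the other members of the standard deviation of their log2 ratio over libraries. A low M means that a gene keeps its proportion to the others. With all 8 genes M was 0.127 for Hprt, 0.137 for Ywhaz, 0.137 for Tbp, 0.140 for Eef1a1, 0.147 for Rplp0, 0.159 for Actb, 0.176 for Gusb and 0.533 for Ppia. With Ppia left out, it was 0.0609 for Hprt, 0.0687 for Ywhaz, 0.0756 for Tbp, 0.0830 for Eef1a1, 0.0861 for Actb, 0.0941 for Rplp0 and 0.103 for Gusb. Removing the gene of highest M at each step took out Ppia, Gusb, Actb, Ywhaz, Rplp0 and Hprt in turn and left Tbp with Eef1a1. Their ratio had a standard deviation of 0.0297 in log2, and the next closest pair, Actb with Gusb, one of 0.0303. M rates genes that move together as stable. The stepwise order set aside Ywhaz, the gene with the smallest spread, before Eef1a1, the gene with the second largest. Whether Tbp and Eef1a1 moved together cannot be decided here. Counting alone gives Tbp a coefficient of variation of 4.35%, and its ratios were within counting error. Gusb with Eef1a1 was the widest pair by range without Ppia, with a ratio that ranged over 1.22-fold.

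The choice of reference set how the osteoclast genes read. Ctsk, encoding the matrix protease cathepsin K, had 983 FPKM in T1, 979.9 FPKM in T2 and 1337 FPKM with RANKL alone. Divided by Ywhaz, its ratio to RANKL alone was 0.734 (0.708 to 0.761) in T1 and 0.738 (0.712 to 0.764) in T2. Divided by Ppia it was 0.389 (0.378 to 0.400) and 0.376 (0.366 to 0.387), and divided by Gusb 0.792 (0.763 to 0.821) and 0.804 (0.776 to 0.834). Ctsk was lower beyond counting error over every one of the 8 genes. Nfatc1, the transcription factor that drives osteoclast differentiation, changed direction with the divisor. In T1 its ratio was 0.554 (0.538 to 0.571) over Ppia, 0.925 (0.906 to 0.943) over Eef1a1, 1.05 (1.01 to 1.09) over Ywhaz and 1.13 (1.09 to 1.17) over Gusb. In T2 it was 0.493 (0.479 to 0.508) over Ppia, 0.967 (0.932 to 1.004) over Ywhaz, which is within counting error, and 1.05 (1.02 to 1.095) over Gusb.

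Of the 10 osteoclast genes all 10 were lower by 1.2-fold or more over Ppia in both TSH libraries, 4 were over Ywhaz and 3 over Gusb in each of them. Calcr, the calcitonin receptor gene, is among the 10 but held at most 44 reads in a library and did not pass the filter. The median ratio of the 10 genes was 0.457 in T1 and 0.432 in T2 over Ppia, 0.863 and 0.848 over Ywhaz, and 0.930 and 0.924 over Gusb. With all copies of Ppia added to it, the medians over Ppia were 0.718 in T1 and 0.697 in T2, and 9 and 10 genes were lower by 1.2-fold. Over the geometric mean of all 8 genes it was 0.771 and 0.779, with 7 and 8 genes lower by 1.2-fold.

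**Figure D5:**
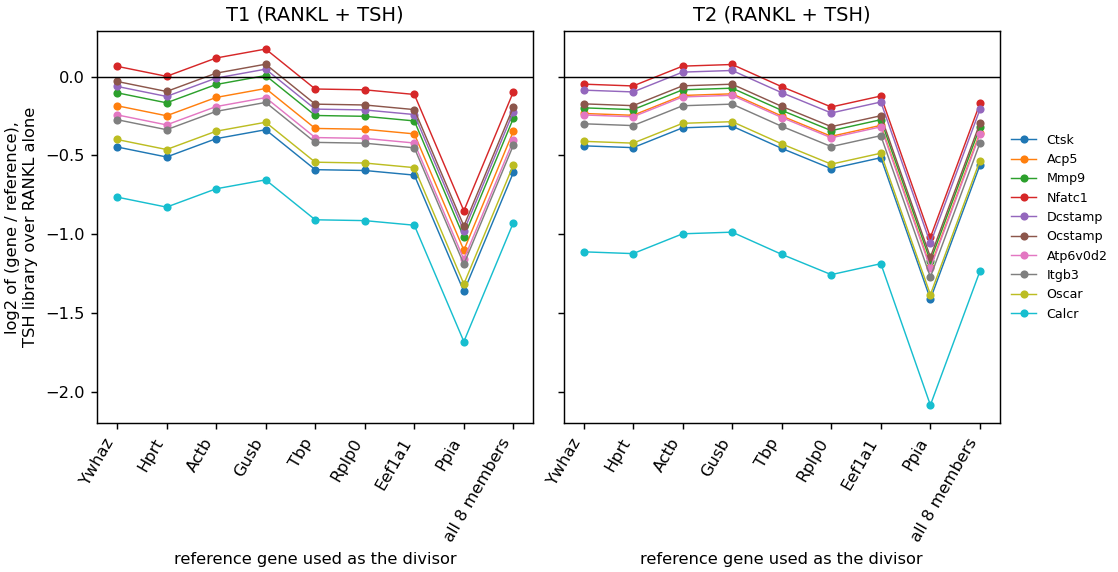
Log2 ratio to RANKL alone of 10 osteoclast genes in T1 (left) and T2 (right) after division by each reference gene or by the geometric mean of all 8, with 1 line per osteoclast gene. All lines drop at Ppia and lie highest at Gusb, and Nfatc1 crosses 0 between divisors.

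A wider list of 40 genes that are also used as references was read in the same way, and all 40 passed the filter. Their median spread was 1.07, and 2 of the 40 reached 1.2-fold where 18.4% of all genes did. That share is not matched for reads, and few reads alone widen a spread. Among 3684 genes with at least 1000 reads in each library and no near-identical copy, the median spread was also 1.07. The steadiest were Pgk1, an enzyme of glycolysis, at 477 FPKM in T1, 481 FPKM in T2 and 478 FPKM with RANKL alone, then Ldha, Top1 and Ubb, with spreads of 1.01 each, and Canx, a chaperone of the endoplasmic reticulum, at 1.02. The spread of Ywhaz, 1.008, was the smallest of both lists as deposited, but it differed from the 1.009 of Pgk1 by far less than counting error. With copies added Pgk1 was at 1.009, Top1 at 1.011 and Ywhaz at 1.012, so these genes have no order among them. Hprt was at rank 12. The widest were Rps18, a protein of the small ribosomal subunit, at 1.26 and Tuba1b, an alpha-tubulin, at 1.24, then Reep5, Vcp and Vps29 at 1.14, 1.13 and 1.13. Rps18 was lower in T1, at 0.792 (0.727 to 0.863), but with its 22 copies added its log2 ratio was 0.12, the other direction, and its spread was 1.09.

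Gapdh, a glycolytic enzyme gene and among the most used references, was named after its values were seen. It was listed at 5.87 FPKM in T1, 6.24 FPKM in T2 and 5.75 FPKM with RANKL alone, from 407, 452 and 383 reads. A single processed pseudogene, Gm13394 (chr2:28933610-28934609, minus strand), held 13472, 13844 and 11704 reads. Gapdh itself thus held 2.77%, 3.02% and 3.04% of the reads of the family of 106 copies and itself. Of its 1077 coding bases in the transcript used 999 align to Gm13394, with 1 substitution, marked by a capital in coding bases 275 to 424.
Gapdh: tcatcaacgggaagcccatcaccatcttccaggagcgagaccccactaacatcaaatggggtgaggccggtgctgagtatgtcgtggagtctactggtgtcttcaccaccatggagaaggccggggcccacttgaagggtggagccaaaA
Gm13394: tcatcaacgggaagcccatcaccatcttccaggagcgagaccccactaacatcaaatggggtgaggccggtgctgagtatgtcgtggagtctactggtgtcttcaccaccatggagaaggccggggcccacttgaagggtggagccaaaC
The family summed to 876 RPM in T1, 853 RPM in T2 and 782 RPM with RANKL alone. The spread of Gapdh was 1.09 alone and 1.12 with its copies, both under 1.2-fold.

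Genes with the most similar pair of log2 ratios, T1 and T2 against RANKL alone, were sought among 4462 well covered genes. With only 2 ratios per gene many genes lie close to any given one, and the likeness is a description. The nearest were Exosc3 and Ankrd40 to Actb, Rpl36 and Psip1 to Hprt, Pum3 and Preb to Tbp, Vps52 and Atp13a3 to Ywhaz, Trappc3 and Vcl to Gusb, Glipr1 and Rpe to Rplp0, and Ndufb5 and Kif18b to Eef1a1. All lay within 0.01 in log2 of their member. No gene lay that close to Ppia. Its nearest were mt-Co3, a mitochondrial gene, at a distance of 0.40, and Rpl7a at 0.42. Both have near-identical copies, but so do Rpl36, Psip1 and Glipr1, named above for Hprt and Rplp0. Hprt itself has none.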

How the data were processed

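The data were 3 RNA-seq libraries of RAW264.7 cells, 1 per group, for which a SMARTer mRNA kit was used on total RNA, per the labels' protocols. The values are FPKM as the authors deposited them, 1 column per library beside the authors' deposited gene length, and 0 per-sample columns were left unused. GRCm38 and mm10, 2 names of 1 assembly, are the builds per the submitters' processing notes. Aligner, counter, strand setting and the treatment of reads that fit several places were not given in the sources used here. Only the column of RANKL alone was known from its name, while the hours of T1 and T2 are not given by theirs, so comparisons planned by hours are reported by column.

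Multiplied by gene length, FPKM came in whole steps of 1 size per library, within 0.01 for 100% of values above 0, which gave reads per gene. Rescaling by median-of-ratios size factors computed from these reads changed no value, so the deposited scaling is the same as that one and it is not an independent alternative. A single library per group allowed no test. Ratios of FPKM carry exact conditional (Clopper-Pearson) 95% intervals, which cover counting error only, as copies made by PCR are not separate molecules. Values divided by a reference gene carry intervals from the counting variance on the log scale. The filter asked for a mean of 1 FPKM and for 100 reads over the libraries, and 1.2-fold counted as differing.

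For near-identical copies, BLAST+ 2.17.0 was run on GENCODE M21 transcripts on GRCm38, which held 99.9% of the identifiers. At least 95% identity over 100 bases and 50% of the shorter transcript was asked. The members, the lists and the 1.2-fold rule were chosen with earlier results of these data known. Named by rule were the members, the 5 smallest and 5 largest spreads of the wider list, the 2 largest of each list of related genes, the 2 genes nearest to each member among those of at least 10 FPKM and 1000 reads, and the 10 steadiest genes without a copy. Actg1, Rplp1, Gapdh, the copies and the osteoclast genes set out were named after their values were seen. Alternatives were other scalings, pseudocounts, filters and folds, copies added, and each library left out. Functions were tested on simulated reads. Python 3.11.15, numpy 2.4.6, pandas 2.3.3, scipy 1.17.1 and matplotlib 3.10.9 were used.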

Additional observations from a re-analysis of the deposited data

Results flagged for a closer look

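In 4 genes of the lists, T1 was above and T2 below RANKL alone, each beyond counting error, with 1 library each. Hsp90ab1, a cytosolic chaperone, had ratios of 1.03 and 0.976, so that T2 against T1 was at -0.0708 in log2. Rpl32, of the large ribosomal subunit, had 1.03 and 0.964, and was at -0.0928. Eef2, the translocation factor of translation, had 1.01 and 0.977, and was at -0.0549. Nfatc1, the osteoclast transcription factor, had 1.05 and 0.961, and was at -0.125. The differences between T1 and T2 were not tested, and all are under 1.2-fold. The share of all genes that went opposite ways is not given here, so nothing is read from the count of 4. Genes with many reads pass counting error at small differences.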

How the results depend on the processing

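Of 528 results under up to 16 settings, 4121 of 4415 values moved little or kept their call and were rated the same. A further 288 moved and 6 reversed. Small differences could change sign without being rated reversed. The log2 ratio of Ywhaz in T1, 0.00318, was shifted by -0.0258 with libraries at the same FPKM total and is not among the 6. Median-of-ratios scaling could change no value. Its 528 values are all among those rated the same, and it is no separate check among the scalings below. Of the 8 genes Ywhaz had the smallest spread, Hprt the next and Ppia the largest under every scaling, pseudocount and copy setting: Ywhaz ranged from 1.01 to 1.02, Hprt from 1.03 to 1.05 and Ppia from 1.21 to 1.96. Without T1, Hprt (1.002) and Tbp (1.01) were steadiest. Without RANKL alone, Tbp was widest (1.102) and Ppia was at 1.03. Leaving out 1 library at a time gave 0 to 1 members past 1.2-fold and 0 to 2 of the wider list.

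With all copies added, 0 genes of the wider list passed 1.2-fold over the libraries and 0 in T1, and with copies of at least 80% of the length 1 and 1. With either, 0 members were higher in T2 than in T1 beyond counting error. At 1.1-fold, 4 members differed over the libraries, where 5059 of the 10231 genes past the filter did, so this count does not set the members apart. At that fold 4 members differed in T1 and 1 in T2 against T1. Of the wider list 7 differed over the libraries, 6 in T2 and 1 in T2 against T1. No count of all genes at 1.1-fold is given for the single comparisons, so nothing is read from the counts for these. At 1.5-fold 0 of the wider list did over the libraries and 0 in T1. With copies Rps18 reversed, to 0.125 in T1 and 0.0348 in T2 (log2), and to 0.124 and 0.0334 with the longer copies. Rpl4 reversed for T2 against T1, to 0.00036, with libraries at the same FPKM total. Nfatc1 over the mean of the members reversed in T1, to 0.012, without Ppia in that mean, a setting chosen after seeing the data. The cause was not tested. Counting error limits Tbp, and the missing replicates limit all. Of all genes, 1886 differed by 1.2-fold over the libraries, 1145 with a pseudocount of 1 FPKM, 721 at a mean of at least 5 FPKM, 7539 with no filter, 5059 at 1.1-fold and 273 at 1.5-fold. No paired analysis was possible because the result comes from no test and the columns carry no replicate numbers.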

Other observations

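The steadiest genes overall were sought among 3684 genes with at least 1000 reads in each library and no near-identical copy. By spread the first 10 were Trap1, Ubqln1, Suclg1, Vps13c, Chd4, Gmfb, Srm, Tcf12, Cdk4 and Faf1. Trap1, a mitochondrial chaperone, had 96.9 FPKM in T1, 96.9 FPKM in T2 and 96.9 FPKM with RANKL alone, and Cdk4, a kinase of the cell cycle, 94.5 FPKM in T1, 94.4 FPKM in T2 and 94.8 FPKM with RANKL alone. Their coefficients of variation, from 0.0223% to 0.200%, are below those that counting gives for each, which run from 1.24% to 2.72%, so their order among themselves is not measurable at this depth. Ywhaz would stand at rank 52 in this set, and 34.1% of it had a spread within 5% of 1.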
